A study of Drosophila melanogaster with 93 samples.

Results

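The comparison described here is between H3K9me3 peak lists of *fru P1* neurons from 10–12 day adult males (4 libraries) and from 1-day adult males (4 libraries), chosen by their sample titles. These are 8 of the 93 samples of the series and 8 of its 31 H3K9me3 peak lists. The study profiled histone modifications in *Drosophila melanogaster* neurons by sequential ChIP-seq, in which chromatin was first selected for the modification and then for a tagged histone made only in the neurons of interest. The question put to this pair of groups was where H3K9me3 differs between older and young adult males in the neurons that direct courtship. The measure used throughout is coverage, the percentage of a gene body, of a window of 250 bp on each side of a transcription start site (TSS), or of a 10 kb bin of dm6 that lies under a called peak.

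Flies of both groups carried *w*, *UAS-Gal4*, *UAS-Chromatag* and *fru P1-Gal4*, so tagged histone H2B was made wherever the *fru P1* driver was active. The 10–12 day males were frozen 10 to 12 days after eclosion and the 1-day males 16 to 24 h after eclosion, both from 25 °C. Each library came from the heads of about 1000 sex-sorted flies and is an independent biological replicate according to the labels. The *fru P1* driver marks many classes of neurons, and coverage in a library is an average over all of them. Adults of the older group were also collected over a longer window and moved to new vials while aging. Stage, collection and the input used for peak calling, which differs between the stages, cannot be told apart in this design.

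H3K9me3 is trimethylation of lysine 9 of histone H3. It is laid down by histone methyltransferases, is bound by HP1 proteins, and marks silent heterochromatin, above all repeats near centromeres and on chromosome 4. On chromosome arms it is found more sparsely. *fru P1* transcripts come from the most distal promoter of *fruitless* (*fru*), and the male forms encode BTB zinc-finger transcription factors that specify the neurons of courtship behavior.

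Before any comparison, the peak lists were checked against these known properties, and they did not show them. Coverage of chromosome 4 was 14.2%, 15.9%, 9.26% and 14.2% in 10–12 day males, against 21.5%, 18.9%, 8.42% and 11.5% in 1-day males. Within 1 Mb of the centromere ends it was 3.81%, 4.5%, 3.70% and 4.61%, against 6.84%, 6.93%, 5.33% and 5.62%. The rest of the genome had 20.7% to 24.8% in 10–12 day males and 27.5% to 30.8% in 1-day males, so in all 8 libraries the classical heterochromatin was less covered than the arms. Only reads that align once were kept, which leaves repeats unseen. Whether this bears on the low values was not tested, nor was how far the peaks reflect the mark. Median fold enrichment was 1.44 to 1.6 in 10–12 day males and 1.49 to 1.53 in 1-day males, and only 1 to 15 peaks per library had a q-value under 0.05. What follows therefore describes weak, broad enrichment over unique sequence.

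After filtering, 2119672, 5021999, 5246257 and 4501789 tags remained in 10–12 day males, against 4582533, 4064854, 4256402 and 3856798 in 1-day males. The 10–12 day replicate 1 stands apart, with a redundant rate of 0.5 against 0.02 to 0.04 in the other 7 libraries, and the counts of called bins and genes are also given without it. Replicate 3 of each stage stands apart in another way: exons were covered to 34.7% in the 10–12 day replicate 3 (others 23.1% to 24.3%) and to 37.2% in the 1-day replicate 3 (others 26.0% to 26.8%). The X chromosome was nearly free of peaks in males, with 2.63% to 4.45% covered in 10–12 day males and 2.25% to 6.10% in 1-day males. In females 22.7% to 28% of X was covered at 10–12 days and 27.3% to 31.3% at 1 day. Results below are thus almost wholly about autosomes.

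The promoter sequences printed next belong to TSSs whose windows lay wholly or partly under peaks in all 4 libraries of one stage and were free of peaks in all 4 of the other, and they show the base composition behind the motif counts given further on. Each is 200 bases upstream of a TSS, read 5′ to 3′ on the gene's strand from the RefSeq genome of the dm6 assembly. Capitals mark the TATA box letters TATAAA and the GAGA repeat letters GAGAGAG, on either strand. The first 3 lay under peaks in the older males and had none in the young males: *CG11317* (chr3R:31097322-31097521, minus strand), *CG13252* (chr3L:20730391-20730590, plus strand) and *lncRNA:CR45347* (chr2L:20562047-20562246, plus strand). The last 2, with coverage in the young males alone, are *Or33c* (chr2L:11937769-11937968, plus strand), which encodes an odorant receptor, and *CG10013* (chr3R:12323321-12323520, plus strand).
CG11317: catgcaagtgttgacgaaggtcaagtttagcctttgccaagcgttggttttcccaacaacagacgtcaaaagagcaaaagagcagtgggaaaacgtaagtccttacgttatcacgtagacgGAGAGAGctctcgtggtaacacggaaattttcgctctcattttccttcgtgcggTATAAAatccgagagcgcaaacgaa
CG13252: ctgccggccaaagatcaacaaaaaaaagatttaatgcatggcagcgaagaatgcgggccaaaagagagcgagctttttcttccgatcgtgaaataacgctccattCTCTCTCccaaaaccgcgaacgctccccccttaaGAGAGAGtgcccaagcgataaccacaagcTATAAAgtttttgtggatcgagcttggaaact
lncRNA:CR45347: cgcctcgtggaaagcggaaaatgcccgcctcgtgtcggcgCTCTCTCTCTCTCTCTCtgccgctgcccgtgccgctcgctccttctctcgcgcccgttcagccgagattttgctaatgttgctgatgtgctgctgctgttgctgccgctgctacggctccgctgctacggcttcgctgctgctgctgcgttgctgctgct
Or33c: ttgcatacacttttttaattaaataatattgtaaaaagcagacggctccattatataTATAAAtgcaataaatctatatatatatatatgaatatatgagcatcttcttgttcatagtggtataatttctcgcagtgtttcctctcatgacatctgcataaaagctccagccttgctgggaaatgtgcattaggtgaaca
CG10013: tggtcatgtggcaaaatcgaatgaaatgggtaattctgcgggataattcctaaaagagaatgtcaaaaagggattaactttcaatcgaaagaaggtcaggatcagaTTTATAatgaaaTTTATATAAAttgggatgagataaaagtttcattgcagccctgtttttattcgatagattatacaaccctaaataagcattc
In the first 3 sequences a GAGA repeat is present, and in the last 2 the TATA box letters are present without one. *CG13252* and *lncRNA:CR45347* were picked because they hold the repeat. The upstream bases of *Rrp5*, *Dis3* and *Frl*, whose windows also lay under peaks in the older males alone, lack it. *Or33c* and *CG10013* hold TATA box letters that 2 other promoters of the same direction (*lncRNA:CR44698* and *CG32473*) lack. *CG11317* and *CG13252* hold them too, so the contrast is an illustration.

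Peaks covered less of the genome in the older males, most clearly between genes. The covered length was 29.5, 26.8, 31.9 and 27.7 Mb in 10–12 day males, against 35.7, 36.2, 39.6 and 37.4 Mb in 1-day males. The groups did not overlap, and the mean fell to 29.0 ± 2.27 Mb in 10–12 day males, against 37.2 ± 1.73 Mb in 1-day males (SD, n = 4 each; difference −8.25 Mb; two-sided exact permutation p = 0.0286, adjusted p = 0.0490 over 12 library measures). An exact p of 0.0286 is the smallest that 4 libraries against 4 can give. The number of peaks did not follow the covered length, as the lists held 25470, 23603, 25357 and 23729 peaks in 10–12 day males and 22469, 24247, 24298 and 23112 in 1-day males.

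Intergenic sequence showed the clearest separation. It was covered to 20.0%, 18.8%, 19.8% and 19.9% in 10–12 day males, against 30.8%, 29.7%, 29.2% and 30.9% in 1-day males. The means were 19.6 ± 0.572% and 30.2 ± 0.83% (difference −10.6 points; exact permutation p = 0.0286, n = 4 each, adjusted p = 0.0490). Gene bodies as a whole were covered to 22.9%, 20.6%, 25.6% and 21.0% in 10–12 day males, against 24.9%, 25.8%, 29.7% and 26.6% in 1-day males. Here the groups overlapped and the difference of −4.23 points did not pass the test (exact permutation p = 0.0571, n = 4 each, adjusted p = 0.0857). Intergenic coverage was below gene body coverage in all 4 of the 10–12 day libraries and above it in 3 of the 4 1-day libraries, all but replicate 3.

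With all called peaks, TSS windows did not share the lower coverage. They were covered to 24.3%, 20.2%, 23.3% and 18.8% in 10–12 day males, against 19.2%, 19.5%, 22.4% and 20.5% in 1-day males, a difference of 1.2 points that did not pass the test (exact permutation p = 0.400, n = 4 each). The sign of this difference depended on the peak threshold. It was −1.97 points with peaks of −log10 p of at least 1.3 and −3.39 points with peaks of a fold enrichment of at least 1.5. Neither passed the test. The sequence 2 to 3 kb from TSSs had 24.3%, 21.9%, 29.3% and 23.3%, against 27.2%, 28.2%, 33.9% and 29.3%. On the log2 scale, the ratio of TSS coverage to this flank was −0.0011, −0.12, −0.33 and −0.31 in 10–12 day males, against −0.50, −0.53, −0.60 and −0.51 in 1-day males. The dip at start sites was shallower in every older library, by 0.34 on the log2 scale (exact permutation p = 0.0286, n = 4 each, adjusted p = 0.0490). Windows at transcript ends did not share this, and fell to 17.4 ± 1.85% in 10–12 day males, against 21.2 ± 1.58% in 1-day males (exact permutation p = 0.0286, n = 4 each, adjusted p = 0.0490). At equal covered length this difference turned to 0.842 points and no longer passed (exact permutation, adjusted p = 0.190).

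**Figure D1:**
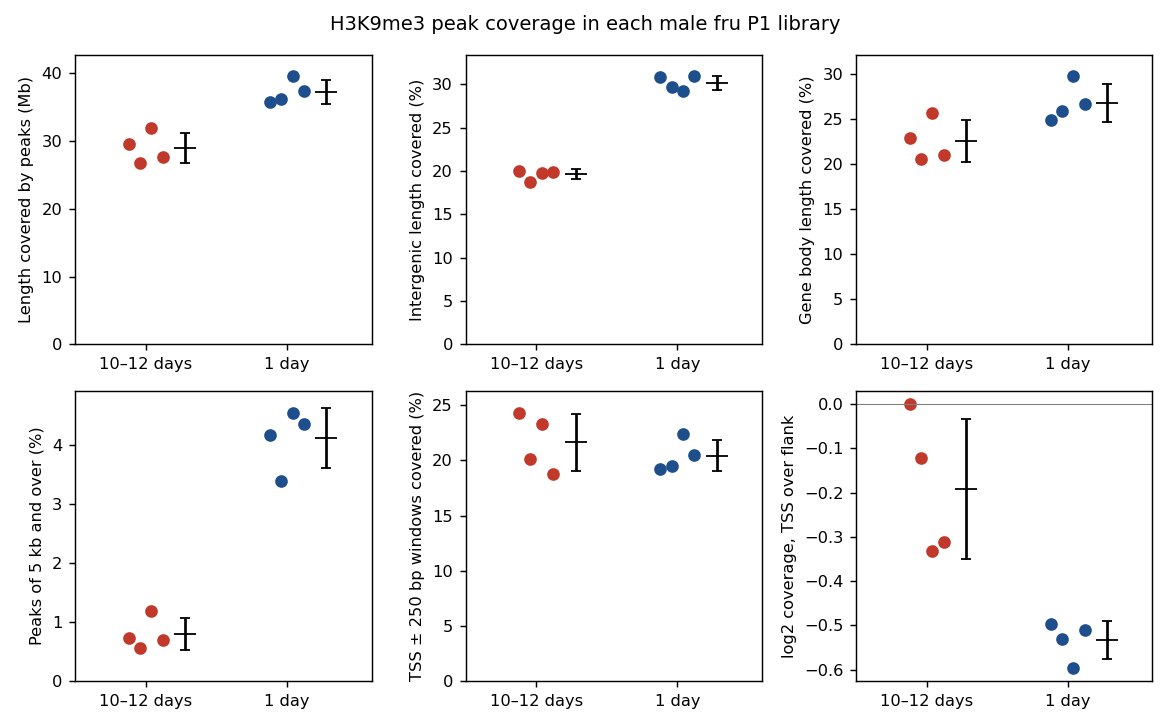
Each point is 1 library of *fru P1* males, with 10–12 day males on the left of each panel and 1-day males on the right, and black bars give the mean and SD of the 4 libraries. The panels show covered length (Mb), intergenic and gene body coverage (%), peaks of 5 kb and over (%), TSS window coverage (%) and the log2 ratio of TSS to flank coverage. Intergenic coverage of 18.8% to 20.0% at 10–12 days lies wholly below the 29.2% to 30.9% at 1 day, while TSS coverage overlaps.

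**Figure D2:**
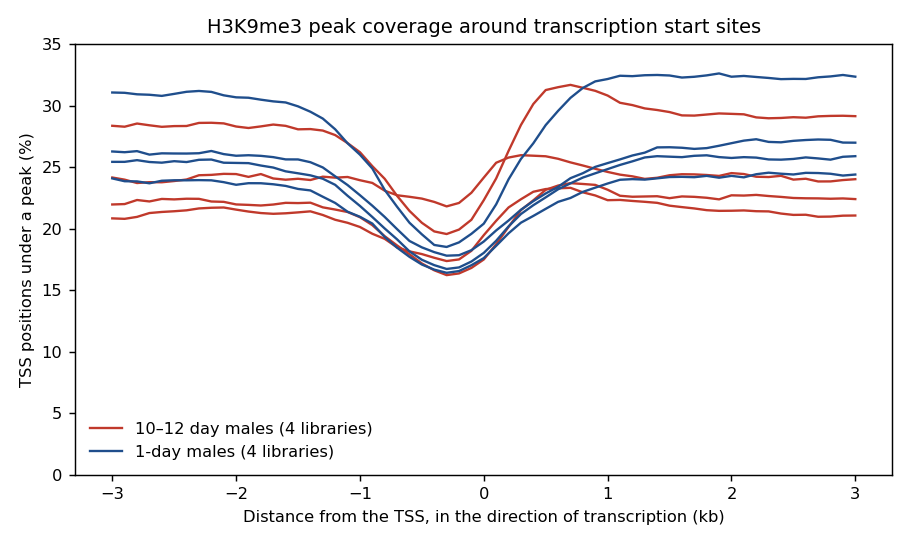
The y axis gives the percentage of TSSs under a peak at each distance (kb, x axis) from the TSS in the direction of transcription, with 1 line per library, red for 10–12 day males and blue for 1-day males. The dip at the TSS is shallower at 10–12 days, where the log2 ratio to the flank is −0.33 to −0.0011, than at 1 day, where it is −0.60 to −0.50.

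Wide peaks were rare in the older males. Peaks of at least 5 kb numbered 187, 132, 303 and 165 in 10–12 day males, against 939, 823, 1106 and 1006 in 1-day males. They held 3.77%, 2.90%, 5.87% and 3.73% of the covered length, against 20.0%, 16.1%, 19.6% and 18.9%. As a share of peaks they fell to 0.796 ± 0.276% in 10–12 day males, against 4.12 ± 0.507% in 1-day males (SD; exact permutation p = 0.0286, n = 4 each, adjusted p = 0.0490). The widest peak of a library measured 11089 to 12025 bp in 10–12 day males and 19929 to 39664 bp in 1-day males. Median peak width fell to 893 ± 27.2 bp, against 1056 ± 39.6 bp, by the same test and with the same p.

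Where young males had wide peaks, older males kept part of the coverage in shorter peaks. Regions under wide peaks in the 1-day lists numbered 835 and spanned 5.92 Mb, of which 50.5% was intergenic. In 10–12 day males 37.4%, 42.2%, 49.7% and 45.9% of their length was still covered, against 86.1%, 80.4%, 83.7% and 82.2% in 1-day males. These regions were picked from the 1-day lists, so the direction is set by the choice and no test is given. The same search in the 10–12 day lists found 39 regions of 0.195 Mb, and these were covered to 70.9% to 81.9% in 10–12 day males and 69.7% to 76.0% in 1-day males.

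In 10 kb bins, loss of coverage was far more frequent than gain. Of 11861 bins tested with limma, 87 gained coverage (0.733%) and 694 lost it (5.85%) in 10–12 day males at a Benjamini-Hochberg adjusted p under 0.05. Without the 10–12 day replicate 1 the counts were 48 and 319. Groups that did not overlap were higher in 256 bins (2.16%) and lower in 1366 (11.5%). The median difference over all bins was −5.16 points, and the split depended on whether this shift was kept. With each library scaled to its own covered share, 42 bins gained and 14 lost, and with peaks trimmed to an equal covered length 75 gained and 88 lost. Bins called in the same direction under all of these numbered 25 for gain and 13 for loss. By construction both scalings lower 1-day coverage relative to 10–12 day coverage, which favors gains. With peaks of a fold enrichment of at least 1.5, no bin gained coverage.

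The losing bins lay in gene-poor sequence and the gaining bins in gene-rich sequence. The median intergenic share was 60.5% in losing bins and 3.85% in gaining bins, against 7.02% in all bins tested. Losing bins had a median coverage of 28.8% in 10–12 day males and 66.9% in 1-day males, and gaining bins of 31.5% and 3.70%. Of the 2233 bins that were more than 75% intergenic, 294 lost coverage (13.2%) and 1 gained it. Coverage of this class averaged 25.1%, 24.3%, 25.4% and 26.1% in 10–12 day males, against 41.5%, 40.0%, 39.4% and 41.1% in 1-day males.

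Bins dense in start sites showed the opposite balance. Of the 559 bins with 7 or more TSSs, 17 gained coverage (3.04%) and 5 lost it (0.894%). Their mean coverage was 24.9%, 20.2%, 29.7% and 21.6% in 10–12 day males, against 17.5%, 19.9%, 28% and 21.3% in 1-day males, and these ranges overlap. Replicate 3, the library with high exon coverage, was the highest of its stage in this class at both stages. The median GC content was 42.4% in gaining bins and 42.9% in losing bins, against 42.3% in all bins. Of the losing bins, 249 of 2964 tested were on 3R (8.40%), 175 of 2565 on 3L (6.82%), 149 of 2255 on 2L (6.61%), 106 of 2271 on 2R (4.67%), 14 of 1683 on X (0.832%) and 1 of 123 on chromosome 4 (0.813%).

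**Figure D3:**
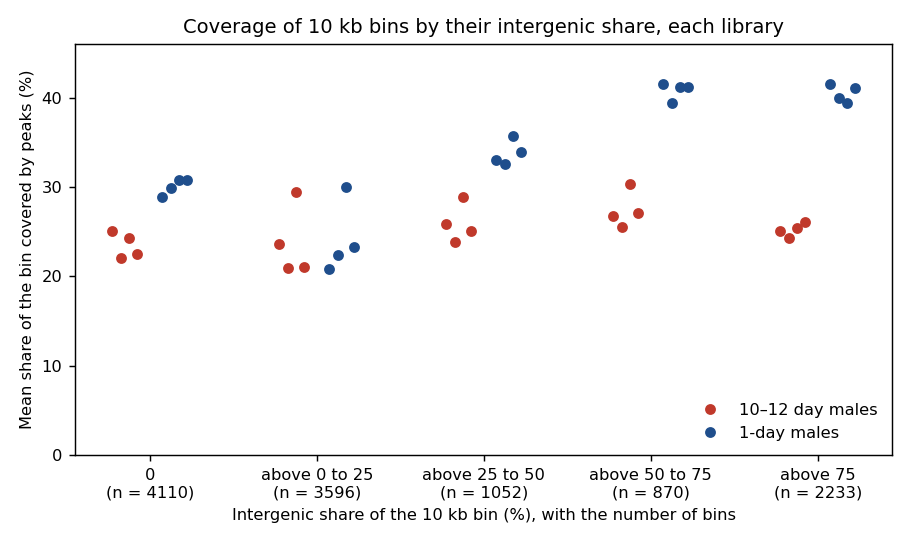
Bins of 10 kb are grouped along the x axis by the percentage of the bin that is intergenic, and the y axis gives mean coverage (%) of each class, with 1 point per library, red for 10–12 day males and blue for 1-day males. The stages lie far apart in bins more than 75% intergenic, with means of 25.2% at 10–12 days and 40.5% at 1 day, and overlap in bins above 0 to 25% intergenic, with 23.8% and 24.1%.

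Called bins were joined into runs where they touched. The 694 losing bins formed 545 runs, of which 94 held 2 or more bins and 33 held 3 or more, and the 87 gaining bins formed 80 runs of at most 2 bins. The longest run, 8 bins at chr3R:16660001-16740000, covers most of *Ultrabithorax* (*Ubx*), the Hox gene that sets the identity of the third thoracic segment. Coverage of this run was 27.8%, 48.6%, 47.9% and 51.7% in 10–12 day males, against 93.4%, 81.4%, 80.4% and 81.1% in 1-day males. In males of 48hr APF (48 hours after puparium formation) it was 37.4% to 52.2%, below the 1-day males. Those libraries came from whole pupae and not from heads, so stage and tissue cannot be told apart there. In females the run was covered to 49.5%, 28.7% and 53.4% at 10–12 days, against 83.1%, 82.8%, 87.3% and 78.5% at 1 day. The run was picked for its length among called bins, so its values are a description.

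**Figure D4:**
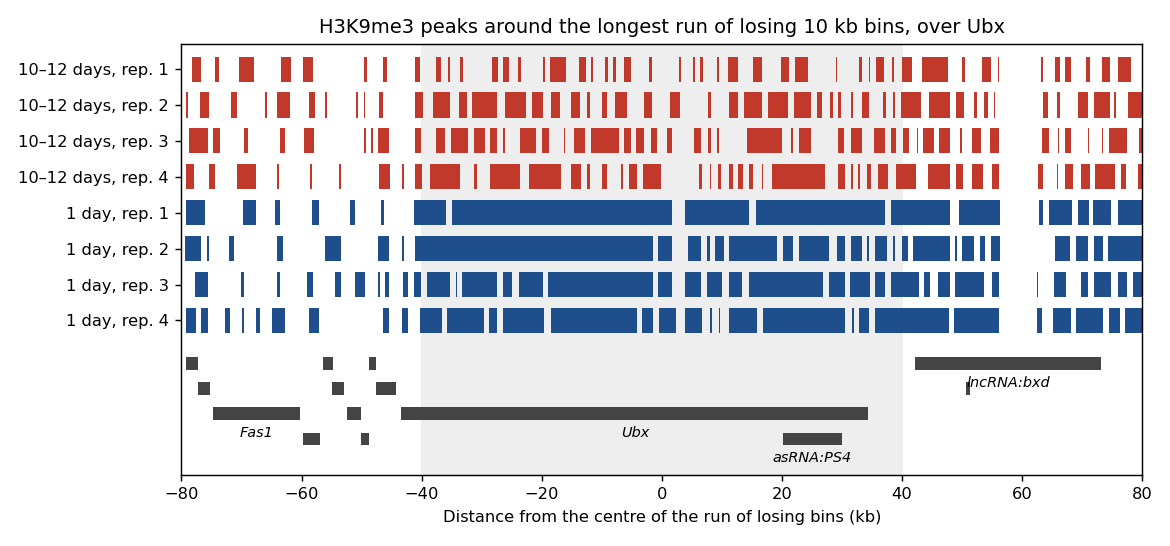
Horizontal bars are peaks of each library along 3R, with distance (kb) from the middle of the *Ubx* run on the x axis, 10–12 day males above 1-day males and genes below. Peaks in the 80 kb run are short and separated at 10–12 days, with 27.8% to 51.7% of the run covered, and nearly continuous at 1 day, with 80.4% to 93.4%.

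The next longest losing run, 7 bins at chr3R:10430001-10500000, was 89.4% intergenic and overlaps *Cyp12e1*, a cytochrome P450 gene, and 3 lncRNA genes. It was covered to 44.2%, 37.3%, 37.3% and 38.5% in 10–12 day males, against 88.9%, 76.7%, 89.2% and 77.3% in 1-day males. A run of 6 bins at chr2L:15360001-15420000 was 94.9% intergenic and had 29.2%, 31.2%, 33.5% and 44.2%, against 74.96%, 67.0%, 84.8% and 77.5%. A run of 5 bins at chr3R:12300001-12350000 overlaps *svp*, which encodes an orphan nuclear receptor used in neuronal fate, and the *CG10013* start site printed above. It had 32.6%, 41.1%, 37.1% and 34.3%, against 70.9%, 80.04%, 69.1% and 73.9%. A run of 4 bins at chr2L:11370001-11410000 holds *salr*, a spalt family zinc-finger gene (29.7%, 33.8%, 42.7% and 51.8% in 10–12 day males, against 91.9%, 74.7%, 80.5% and 75.1% in 1-day males). The stages did not overlap in any of these 4 runs. As all were picked as runs of called bins, the values are a description.

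The single bins with the largest losses were 0% to 100% intergenic. The bin chr2L:15390001-15400000, which lies in the 6-bin run and holds 4 lncRNA genes, had 21.2%, 31.6%, 10.6% and 32.0% in 10–12 day males, against 100%, 71.0%, 98.4% and 69.2% in 1-day males (difference −60.8 ± 10.3 points, SE; limma adjusted p = 0.00297). The bin chr3R:11290001-11300000 is wholly inside *lncRNA:CR31386* and had 20.9%, 21.5%, 47.7% and 22.4%, against 86.2%, 84.2%, 92.0% and 91.7% (−60.4 ± 9.96 points; adjusted p = 0.00289). The bin chr3L:12450001-12460000 holds no annotated gene at all and had 28.4%, 48.1%, 32.4% and 26.8%, against 100%, 83.9%, 100% and 89.6% (−59.4 ± 9.89 points; adjusted p = 0.00289). In *Dnah3*, which encodes an axonemal dynein heavy chain, the bin chr3L:4860001-4870000 had 7.27%, 18.0%, 48.9% and 2.05%, against 57.0%, 79.1%, 100% and 70.9% (−57.7 ± 11.0 points; adjusted p = 0.00405). These 4 bins are among the 13 that lost coverage under every scaling.

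Among called bins whose groups do not overlap, the largest gains were as follows, and coverage in young males was low in some of them and uneven in others. The bin chr2L:9520001-9530000, over *Oatp30B*, which encodes an organic anion transporter, and over *CG33298*, had 58.0%, 64.5%, 10.8% and 48.0% in 10–12 day males, against 0%, 0%, 0% and 5.01% in 1-day males (44.1 ± 9.34 points; limma adjusted p = 0.00769). The bin chr2L:13290001-13300000 had 38.4%, 56.3%, 51.7% and 28%, against 0%, 0%, 3.96% and 16.3% (38.5 ± 8.72 points; adjusted p = 0.0104). The bin chr3L:19080001-19090000 holds the start of *Mkp3*, a MAP kinase phosphatase gene, and had 64.5%, 58.4%, 47.2% and 52.5%, against 5.43%, 7.24%, 20.5% and 37.5% (38.0 ± 9.83 points; adjusted p = 0.0192). In *ctrip*, which encodes an E3 ubiquitin ligase of the circadian clock, the bin chr3R:4800001-4810000 had 70.9%, 39.4%, 39.6% and 30.2%, against 9.83%, 0%, 20.8% and 7.66% (35.4 ± 9.40 points; adjusted p = 0.0204). All 4 are among the 25 bins that gained coverage under every scaling, but none of them passed with peaks of a fold enrichment of at least 1.5.

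Several other bins of the 25 hold genes of metabolism and of general cell function. They are named here after their values were seen. The bin over *Cyt-c-p* (cytochrome c) and *VhaSFD* (a subunit of the vacuolar ATPase) had 51.0%, 25.6%, 30.9% and 27.8% in 10–12 day males, against 0%, 0%, 9.54% and 0% in 1-day males. The bin over *Rm62*, an RNA helicase gene, had 44.2%, 25.6%, 35% and 16.2%, against 0% in all 4. The bin over *UQCR-C1* (a subunit of respiratory complex III) had 47.4%, 30.4%, 76.8% and 55.8%, against 11.0%, 19.0%, 36.6% and 0%, a difference of 35.9 points that is above that of the *ctrip* bin, but its groups overlap. Others overlap *ACC* (acetyl-CoA carboxylase), *Desat1* (a fatty acid desaturase), *bmm* (a triglyceride lipase), *Rab11* (a GTPase of recycling endosomes) and *Kr-h1* (a zinc-finger target of juvenile hormone). A bin counts for each gene in it, and 289 of 17534 genes (1.65%) overlapped a gaining bin and 967 (5.51%) a losing bin.

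Taken gene by gene, few gene bodies passed the test and those were short. Of 15908 genes, 6 gained body coverage (0.0377%) and 22 lost it (0.138%) at a limma adjusted p under 0.05, and at an unadjusted p under 0.05 the counts were 644 and 1117. Without the 10–12 day replicate 1 there were 9 gains and 17 losses. These calls were not stable, as limma called 0 gains and 0 losses at equal covered length, with peaks of −log10 p of at least 1.3, with peaks of fold enrichment of at least 1.5, and without replicate 3 of both stages. All 28 were shorter than 2 kb, so a single peak could cover or miss the whole gene. Groups that did not overlap were higher in 342 genes (2.15%) and lower in 775 (4.87%). The median over all genes was −1.58 points, and 4.31 points when scaled to the covered share.

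Among the 6 gains were *ND-B15*, which encodes a subunit of respiratory complex I, at 100% in all 4 of the 10–12 day males and 0% in all 4 of the 1-day males (limma adjusted p = 0.00884). *RpS15*, a gene of the small ribosomal subunit, had 71.0%, 82.8%, 70.5% and 87.1%, against 0%, 0%, 16.5% and 0% (adjusted p = 0.0491). *mir-4973* and its 2 mature products count as 3 of the 6 gains, yet share 1 locus just downstream of the *lncRNA:CR45347* start printed above, and *CG43058* is the last. The 6 gains thus come from 4 places in the genome.

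The 22 losses included 13 genes that are not protein-coding. *lncRNA:CR44698*, *lncRNA:CR43911*, *snoRNA:Or-CD16*, *CG13716* and *CG31275* went without a peak in all 4 of the 10–12 day males and were covered to 100% in all 4 of the 1-day males (limma adjusted p = 0.00884 for each). *CG31275* lies inside *lncRNA:bxd*, the regulatory transcript unit upstream of *Ubx*, just beyond the losing run. *Eig71Ea*, one of a cluster of ecdysone-induced genes, had 0% in all 4 of the 10–12 day males, against 64.2%, 66.6%, 64.6% and 86.4% in 1-day males (adjusted p = 0.0472). *Ctr1C*, which encodes a copper transporter, had 0%, 26.0%, 19.1% and 20.2%, against 100% in all 4 (adjusted p = 0.0439). *lncRNA:CR43911* and *lncRNA:CR44557* overlap each other, as do *mir-4909* and its mature product, so these losses also come from fewer places than genes.

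Of genes of at least 2 kb none passed. The genes with the largest differences among those whose groups do not overlap are given without a call. *Srp68*, a subunit of the signal recognition particle, had 78.7%, 64.0%, 94.4% and 62.6% in 10–12 day males, against 0%, 0%, 37% and 0% in 1-day males (limma adjusted p = 0.154). *DNAlig3*, which encodes DNA ligase III, had 55.3%, 86.5%, 100% and 87.7%, against 12.4%, 15.9%, 0% and 42.0% (adjusted p = 0.195). *Dref*, the factor that binds the DNA replication-related element of housekeeping promoters, had 70.03%, 51.8%, 83.6% and 55.6%, against 0%, 28%, 0% and 0% (adjusted p = 0.154). *Surf4* (a cargo receptor of the early secretory pathway), *Sec63* (part of the endoplasmic reticulum translocon), *Fpps* (farnesyl pyrophosphate synthase), *CG13775* and *CG7069* complete the upper end, with differences of 54.8 to 61.7 points. At the lower end *CG31016* had 6.37%, 0%, 8.08% and 11.6% in 10–12 day males, against 100%, 65.7%, 70.1% and 90.7% in 1-day males (adjusted p = 0.0634). *wa-cup*, *Alp10* (an alkaline phosphatase), *CG30431*, *CG17047*, *CG30047*, *CG6972* and *CG3546* followed, with differences of −73.6 to −63.7 points.

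Long genes average over many peaks and vary less between replicates, so the 1008 tested genes of at least 20 kb were also fitted on their own, a choice made after the data were seen. In that limma fit 26 gained coverage (2.58%) and 204 lost it (20.2%). Without the 10–12 day replicate 1, 13 gained and 125 lost. Scaled to the covered share, 43 gained and 10 lost, and at equal covered length 97 gained and 29 lost. Thus all 26 gains were called under each scaling, but of the 204 losses only 8 were. By construction both scalings lower 1-day coverage relative to 10–12 day coverage, which favors gains. That the gains were kept is therefore no added support for them.

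The 8 losses are *L*, *knrl*, *Dnah3*, *abd-A*, *cysu*, *lncRNA:CR31386*, *Dhc36C* and *htt*. *L* (*Lobe*), an eye development gene, had 20.4%, 44.7%, 36.1% and 29.7% in 10–12 day males, against 79.1%, 70.9%, 75.6% and 68.7% in 1-day males (limma adjusted p = 0.00218 among genes of at least 20 kb). *knrl*, which encodes a nuclear receptor related to Knirps, had 33.6%, 33.2%, 23.8% and 35%, against 63.4%, 81.0%, 62.7% and 68.2% (adjusted p = 0.00218). *abd-A*, the Hox gene of the anterior abdomen, had 25.8%, 38.6%, 41.9% and 33.8%, against 81.9%, 66.9%, 74.4% and 61.3% (adjusted p = 0.00261). *htt*, the fly huntingtin gene, had 17.5%, 23.8%, 34.1% and 16.9%, against 43.3%, 48.1%, 63.8% and 53.4% (adjusted p = 0.00416).

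The 26 gains included transcriptional regulators, signalling genes and an ion pump. *tara*, which encodes a transcriptional coregulator that also promotes sleep, had 31.5%, 32.2%, 31.8% and 15.5% in 10–12 day males, against 0%, 0%, 14.1% and 3.54% in 1-day males (limma adjusted p = 0.00534 among genes of at least 20 kb). *wdb*, a regulatory subunit gene of protein phosphatase 2A, had 38.6%, 31.9%, 25.4% and 28.8%, against 3.84%, 6.22%, 15.1% and 10.0% (adjusted p = 0.00416). *Atpalpha*, which encodes the catalytic subunit of the sodium pump of neurons, had 45.6%, 22.1%, 26.4% and 23.9%, against 2.73%, 9.42%, 5.59% and 11.8% (adjusted p = 0.00922). *lncRNA:Hsromega*, a stress-induced nuclear RNA, had 10.9%, 6.78%, 4.24% and 5.35%, against 0% in all 4 (adjusted p = 0.0104). Others were *mam* (a Notch coactivator), *arr* (a Wnt coreceptor), *Hipk* and *msn* (protein kinases), *REPTOR* (a factor downstream of TORC1), *Cipc* (an inhibitor of the clock factor CLOCK) and *bun* (a TSC-22 family gene).

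The gene that defines these neurons was among those with less coverage. *fru* had 32.5%, 26.3%, 32.1% and 34.8% of its 131314 bp under peaks in 10–12 day males, against 51.4%, 53.2%, 42.2% and 46.7% in 1-day males. The groups did not overlap, and the difference of −16.9 points missed the threshold in the fit over all genes (limma adjusted p = 0.531) and passed it among genes of at least 20 kb (adjusted p = 0.0187). It did not pass there once libraries were scaled (adjusted p = 0.382) or brought to equal covered length (adjusted p = 0.336). *dsx* (*doublesex*), the other sex-specific transcription factor of these circuits, had 34.2%, 41.5%, 36.1% and 30.7%, against 62.5%, 48.7%, 41.1% and 45.3%, and the ranges overlapped (limma adjusted p = 0.641 over all genes and 0.0745 among long genes).

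No TSS window passed the test, and none could have. Windows at 100% in every library of one stage and 0% in every library of the other had limma adjusted p = 0.510, the smallest of all windows. The absence of calls is therefore no result about TSSs. Over 17112 windows limma called 0 gains (0.0%) and 0 losses (0.0%), with 375 higher and 497 lower at an unadjusted p under 0.05, and a limma fit without the mean-dependent prior called 62 and 91. Groups that did not overlap were higher in 219 windows (1.28%) and lower in 297 (1.74%), and the median difference was 5.69 points. A 501 bp window is mostly either under a peak or not, which leaves large spread between replicates. Among 16809 distinct windows, 8 were fully covered in all 4 of the 10–12 day males and free of peaks in all 4 of the 1-day males, and 14 showed the reverse.

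The 8 include the starts of *Gp150* (a leucine-rich repeat membrane protein), *ND-B15*, *Frl* (a formin), *CG11317*, and the divergent pair *Rrp5* (a ribosomal RNA processing factor) and *Dis3* (an exosome nuclease), whose windows overlap. The 14 include *Or33c*, *Cyp6d2* (a cytochrome P450), *CG10013*, *CG32473*, *lncRNA:CR44698* and *lncRNA:CR44525*. Each of these had 100% at one stage and 0% at the other in all 8 libraries, with limma adjusted p = 0.510. In females the *CG11317* window had 51.3%, 83.0% and 100% at 10–12 days, against 0% in all 4 at 1 day, and the *Or33c* window 0% in all 3, against 100% in all 4. *CG11317* and *Or33c* were the only windows named here whose stages did not overlap in females. The *ND-B15* window was free of peaks in all 7 of the adult female libraries. The *Cyp6d2* window had 0%, 58.7% and 100% at 10–12 days in females, against 100%, 100%, 0% and 0% at 1 day. The *lncRNA:CR44525* window had 0%, 100% and 0%, against 0% in all 4.

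Sequence motifs were counted in the 501 bp windows whose groups did not overlap. Windows are distinct by TSS position, but those of neighboring TSSs overlap and can share the same motif. They are not independent promoters, and separate places in the genome were not counted. GAGAGAG, the repeat bound by GAGA factor, was present on either strand in 59 of 216 distinct higher windows (27.3%) and 24 of 293 lower windows (8.19%), against 1558 of all 16809 (9.27%). TATAAA, the TATA box letters, was present in 71 higher windows (32.9%) and 154 lower windows (52.6%), against 48.7% of all. TATCGATA, the DNA replication-related element bound by Dref, was present in 14 (6.48%) and 6 (2.05%), against 5.57% of all. None of these letter strings contains another. The median GC content was 46.5% in higher windows and 44.5% in lower windows, against 42.5% in all, so higher windows were richer in GC, and its part in the motif counts was not tested. A match is a description of the letters and not of a bound site.

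Gene lists by function were then described, with counts of members whose groups do not overlap set against 2.15% higher and 4.87% lower over all genes. Members of a list can lie side by side and share a peak, and longer genes separate more easily. Among genes of 20 kb and over, 3.27% were higher and 20.6% lower without overlap. The 12 Hox complex genes had less coverage in the older males. Their mean was 26.6%, 39.5%, 45.6% and 58.0% in 10–12 day males, against 75.8%, 65.0%, 66.4% and 61.6% in 1-day males. None was higher and 7 were lower without overlap, with a median difference of −29.3 points (−15.0 scaled, −29.3 at equal covered length). *Antp*, which specifies the second thoracic segment, had 39.4%, 46%, 46.8% and 48.8%, against 85.4%, 79.9%, 69.1% and 78.0%. *Ubx* had 27.2%, 49.9%, 47.0% and 51.2%, against 91.7%, 82.6%, 80.6% and 79.0%. All 6 of the Hox genes over 20 kb (*Abd-B*, *Antp*, *Scr*, *Ubx*, *abd-A* and *pb*) lost coverage in the limma fit of long genes. H3K27me3, the Polycomb mark known for Hox genes, was not analysed here.

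Transcription factors of neuronal identity followed the same course. Of 39 tested, 15 were lower and none higher without overlap, with a median of −19.5 points (−9.16 scaled, −18.6 at equal covered length). *cas*, a temporal factor of neuroblasts, had 13.6%, 22.6%, 29.1% and 19.6% in 10–12 day males, against 79.2%, 83.0%, 84.6% and 69.1% in 1-day males. *hb*, the first factor of the same series, had 18.3%, 16.6%, 33.9% and 32.6%, against 80.9%, 46.1%, 75.3% and 62.4%. *tup*, a LIM-homeobox gene of motor neurons, had 39.4%, 35.2%, 21.0% and 31.4%, against 68.7%, 64.5%, 59.1% and 62.5%, and lost coverage among long genes (limma adjusted p = 0.00261), as did *grh*, *hth*, *nub*, *pdm2* and *sv*. The 12 courtship circuit genes were split, with 6 negative and 6 positive differences, and their median changed sign with the scaling (−7.79 points, −3.18 scaled, 2.35 at equal covered length). Of these, 3 were lower without overlap and none higher, among them *dsf*, a nuclear receptor of both sexes' courtship (38.9%, 35%, 36.0% and 34.3%, against 83.5%, 74.8%, 69.8% and 83.5%).

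Cell-surface recognition genes were lower in gene body coverage by less than the Hox genes. At their TSS windows the median difference was positive, 29.6 points for Beat and Side genes and 15.3 points for Dpr and DIP genes. The same median was 4.09 points over all genes, 16.1 points over genes of 20 kb and over, and 32.2 points for axon guidance genes. Of 22 Beat and Side genes, which encode immunoglobulin proteins that pair motor axons with targets, 15 were lower without overlap and none higher. Their mean was 34.5%, 29.4%, 32.4% and 29.7% in 10–12 day males, against 41.6%, 40.4%, 45.1% and 47.0% in 1-day males, with a median of −12.8 points (−3.43 scaled, −6.45 at equal covered length). *beat-VI* had 44.0%, 27.5%, 32.8% and 35.8%, against 57.9%, 64.9%, 59.8% and 70.9%. Of 31 Dpr and DIP genes, which encode partners in synaptic matching, 10 were lower and none higher, with a median of −11.4 points (−2.67 scaled). Both lists consist mostly of long genes, with median lengths of 41188 and 32526 bp. Their shares lower without overlap, 68.2% and 32.3%, thus stand beside 20.6% among all genes of 20 kb and over.

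Cuticle protein genes, which lie in clusters, were lower as well. Of 109 tested, 17 were lower and none higher without overlap (median −24.8 points, −13.8 scaled, −15.9 at equal covered length). *Cpr97Ea* had 5.64%, 0%, 9.44% and 5.53% in 10–12 day males, against 71.4%, 79.2%, 55.7% and 65.0% in 1-day males. Of 41 neuropeptide genes, 4 were lower, among them *CCAP*, the ecdysis peptide (11.2%, 0%, 0% and 0%, against 50.2%, 33.2%, 70.6% and 47.4%), and 1 was higher, *Dsk*, described below. The medians of odorant receptor genes (−8.01 points, 4.40 scaled) and gustatory receptor genes (−13.7 points, −3.45 scaled, 10.1 at equal covered length) changed sign with the scaling, and no direction is given for them.

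Ribosomal protein and respiratory chain genes had more coverage in the older males. Cytoplasmic ribosomal protein genes had a mean of 26.5%, 20.6%, 30.9% and 24.2% in 10–12 day males, against 6.29%, 8.5%, 14.8% and 7.89% in 1-day males, with 64 of 77 differences positive and a median of 16.4 points (21.8 scaled, 16.6 at equal covered length). Without overlap 5 were higher and none lower, of which *RpS15* passed the test. *RpL14* had 46.6%, 29.6%, 71.5% and 68.5%, against 0%, 0%, 0% and 10.5%. Mitochondrial respiratory chain genes had 29.4%, 23.0%, 38.5% and 32.4%, against 18.5%, 18.6%, 22.2% and 16.4%, with a median of 14.5 points (19.2 scaled, 15.7 at equal covered length), and 4 of 68 were higher. *UQCR-Q*, a subunit of complex III, had 43.4%, 63.1%, 49.3% and 17.4%, against 0% in all 4.

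Heterochromatin and Polycomb genes had a median of 8.94 points and proteasome genes of 8.02 points, but with overlapping means. Both were also positive under each scaling, as was the median over all genes (4.31 points scaled, 5.46 at equal covered length). Of the 44 proteasome genes, 2 were lower without overlap and none higher. Of the 23 heterochromatin and Polycomb genes, none was lower and 1 higher, *wde*, a cofactor of the H3K9 methyltransferase Eggless (41.4%, 22.3%, 26.2% and 12.4% in 10–12 day males, against 0%, 7.44%, 0% and 5.55% in 1-day males). Replicate 3 of each stage had the highest mean of its stage for ribosomal and for mitochondrial genes, as it did for exons, and its part in these lists was not tested. Markers of other head tissues had no common level. The means over all genes were 28.7% in 10–12 day males and 32.1% in 1-day males. Phototransduction genes averaged 28.3% to 41.3% in 10–12 day males and 34.7% to 49.2% in 1-day males. Glial genes averaged 18.2% to 32.8% in 10–12 day males and 24.5% to 45.8% in 1-day males, muscle genes 18.2% to 26.2% and 27.9% to 43.9%, and fat body genes 26.0% to 49.7% and 35.6% to 56.4%. Neuronal marker genes were low at both stages, with 12.2% to 21.7% and 10.9% to 18.5%.

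**Figure D5:**
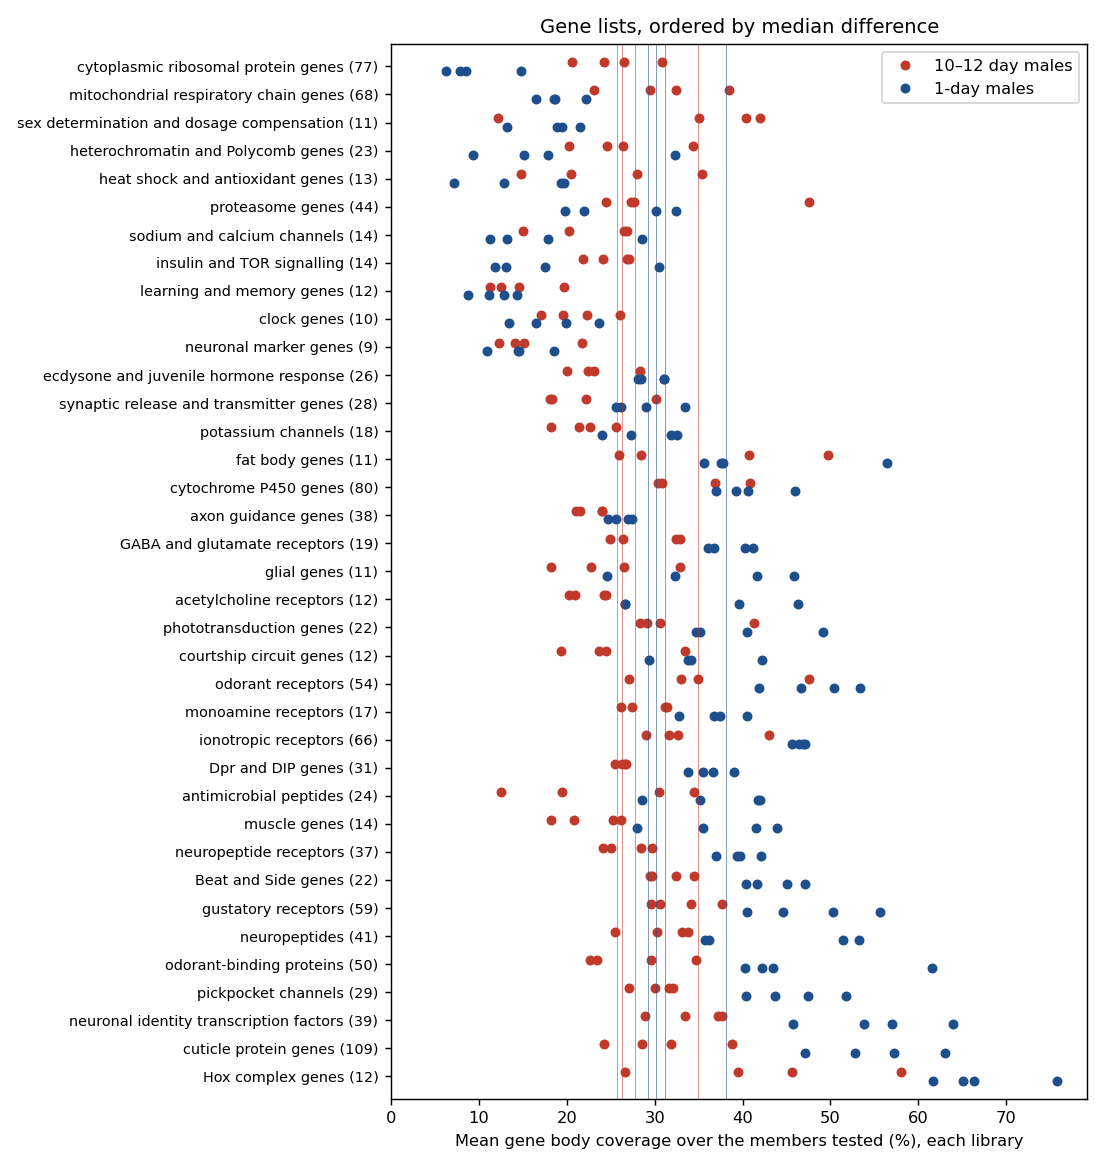
For selected gene lists, given down the y axis, the x axis shows mean gene body coverage (%) over the members, with 1 point per library, red for 10–12 day males above blue for 1-day males, and vertical lines mark each library's mean over all genes. Hox and cuticle protein genes lie lower at 10–12 days (26.6% to 58.0% and 24.2% to 38.7%) than at 1 day (61.6% to 75.8% and 47.1% to 63.0%), and ribosomal protein genes higher (20.6% to 30.9% against 6.29% to 14.8%).

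The same stages were compared in females, to see where the male change differed. Some library values of 10–12 day females (3 libraries) and 1-day females (4 libraries) differed in the same direction as in males and others did not. Intergenic coverage was 20.1%, 18.6% and 19.1% in 10–12 day females, against 31.9%, 31.1%, 34.8% and 30.0% in 1-day females. Peaks of at least 5 kb made up 0.529%, 0.488% and 0.644%, against 3.74%, 2.89%, 4.98% and 3.86%. Chromosome 4 was covered to 8.44%, 9.97% and 11.3% in 10–12 day females, against 6.96%, 11.2%, 7.14% and 6.39% in 1-day females, and bins with no peak made up 12.1%, 11.5% and 12.6%, against 13.8%, 12.8%, 13.2% and 12.3%. The means of both differ the other way from those of males, and the ranges overlap. In males of 48hr APF, taken from whole pupae, intergenic coverage was 21.5% to 22.2% and wide peaks 1.56% to 2.1%, both nearer to the 10–12 day than to the 1-day males. No test was run on these side values.

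A difference between the sexes in the change with age was tested in 1 limma model over autosomal genes. It passed for 5 of 14370 gene bodies (0.0348%), with 770 at an unadjusted p under 0.05, and for 0 of 10155 bins (0.0%), with 499. The 5 rest on single peaks in short genes, and leaving out 1 library at a time gave 1 to 19, with 3 when the 10–12 day male replicate 1 was left out. *ND-B15* was covered in all 4 of the 10–12 day males, as above, against 26.9%, 0% and 0% in 10–12 day females and 0% in all 4 of the 1-day females (male minus female change 91.0 points; limma adjusted p = 0.0148). *Dsk*, which encodes the drosulfakinin neuropeptides that restrain mating drive, had 66.4%, 40.1%, 55.9% and 62.7% in 10–12 day males, against 0%, 32.2%, 0% and 11.8% in 1-day males. In females it had 18.6%, 0% and 0% at 10–12 days, against 68.5%, 62.0%, 78.6% and 48.3% at 1 day (male minus female change 103 points; adjusted p = 0.0484). *CG3223* had 0% in all 4 of the 10–12 day males, against 29.9%, 42.2%, 47.7% and 25.3% in 1-day males, and 79.6%, 100% and 100% in 10–12 day females, against 35.7%, 0%, 30.2% and 34.3% in 1-day females (−104 points; adjusted p = 0.0282). Both genes thus differed in opposite directions in the sexes. *lncRNA:CR44773* was covered to 100% in all 3 of the 10–12 day females and to at most 19.7% in males (−95.1 points; adjusted p = 0.00299), and *Eig71Ea* had no peak in any adult female (−70.4 points; adjusted p = 0.0282).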

How the data were processed

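Adaptors were removed by the authors with Trimmomatic, and only reads with 1 alignment to dm6 (Bowtie2 2.2.5) entered broad peak calling, which was run per library with input chromatin of that sex and stage as control. The file headers give MACS2 2.1.1.20160309 (the submitters' notes give 2.1.0), a fragment length of 200 bp and an input of 49391320 tags for 10–12 day males and 47601396 for 1-day males. Each deposited list gives peak positions, a pileup signal, a −log10 p-value, a fold enrichment (a ratio over the local background) and a −log10 q-value, all computed by the authors per library. Positions were the measurement here, and the other deposited columns served only for alternatives.

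Overlapping peaks were merged within a library on 2L, 2R, 3L, 3R, 4 and X, and the percentage covered was computed for each gene body (18164 genes of Ensembl release 115, without 5809 transposable-element genes), each TSS window and each of 13388 bins. Features with a mean coverage of at least 1% were tested with limma 3.58.1 on the 8 libraries, with a mean-dependent prior, robust estimation and Benjamini-Hochberg adjustment. Bounded percentages that are often 0 or 100 fit this model only roughly, so calls were read with the values. The study states no test for this comparison. Single values per library had a two-sided exact permutation test, adjusted over 12 measures. Depth sets which weak peaks are called, and tag counts give no interval for coverage. Same-numbered replicates of the stages had deviations correlated at −0.035, 0.041, 0.251 and 0.0053, so the numbers were not used as pairs.

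Named items are *fru*, *dsx*, those genes over 2 kb in length with the largest differences among those called and without overlap (12 a direction, or 8 without overlap where fewer than 5 pass), 6 TSS windows and 4 bins a direction, and up to 3 called genes of each list. Others were chosen after their values were seen. The members and the 37 lists were chosen with earlier results of these data known. Alternatives were peak thresholds, coverage scaled to each library's covered share or brought to equal covered length, filters, windows, scales, a replicate block and each library left out. The fit of genes of at least 20 kb, its scalings, leaving out replicate 3 of both stages, and the alternatives of the sex difference were added after the data were seen. The procedures were tested on simulated data. For limma these were normal values without bounds, with changes placed in features of low spread. Its power on the coverage values themselves was therefore not tested. Software was R 4.3.3, Python 3.11.15, numpy 2.4.6, pandas 2.3.3 and scipy 1.17.1. Other histone modifications and reads were not analysed here.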

Additional observations from a re-analysis of the deposited data

Results flagged for a closer look

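In 100 groups of 4 libraries, 10 had a library far from the other 3 by Dixon's criterion. Where the other 3 libraries have no coverage, any value above that is flagged, however small. The count can therefore not be set against a chance rate. In 1-day males, 1 library had coverage of *Srp68* (37%), *Surf4* (12.6%), *CG13775* (26.1%), *Dref* (28%), *Sec63* (7.46%) and *CG7069* (18.7%) while the other 3 had none, and 1 library had *Alp10* at 63.9%, below the rest. In 10–12 day males 1 library had *CG30431* at 33.0% while the other 3 had none, and replicate 3 had the bin chr3R:11290001-11300000 at 47.7%, above the rest. In the bin chr2L:9520001-9530000, 1 of the 1-day libraries had 5.01% and the others none.

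The change with age differed between males and females, by the interaction term of limma (male minus female change), for *lncRNA:CR44773* (−95.1 points), *ND-B15* (91.0 points), *Eig71Ea* (−70.4 points), *Dsk* (103 points) and *CG3223* (−104 points).

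On Y, which the comparison did not use, the 10–12 day lists held 41 peaks and the 1-day lists 81, with 6 to 14 and 13 to 28 per library.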

How the results depend on the processing

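Alternatives were compared with the results above; the cause of a change was not tested unless its construction shows it. In the fit blocked on replicate number, library differences are the same by construction (covered length −8.25 Mb, median width −163 bp, intergenic −10.6 points, transcript ends −3.82 points, log2 TSS ratio 0.34, centromere ends −2.02 points, wide peaks −3.32 points) and none can pass, since 4 pairs give a sign-flip p of 0.125 at best. The block gave 0 gene gains and 0 losses and moved bins to 181 gains. The numbers were not taken as pairs: of the same-numbered replicates only those numbered 3 correlated above 0.1 (0.251) and correlated best with each other. Both replicates numbered 3 also had high exon coverage, and whether they share a batch was not tested.

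Peaks with a fold enrichment of at least 1.5 gave −11.7 Mb, −378 bp, −13.5 points (intergenic), −3.39 (TSS windows, a reversed sign), −5.93 (transcript ends), 0.34 (log2 ratio), −2.33 (centromere ends) and −5.51 (wide peaks), none past the threshold, with 0 gene gains, 0 gene losses and 0 gaining bins. Peaks with −log10 p of at least 1.3 gave TSS windows −1.97 points, 0 gene gains, 0 gene losses and 14 gaining bins. Peaks with q under 0.05, at most 15 per library, gave −0.0134 Mb, −1061 bp, −0.0221 (intergenic), −0.000449 (TSS), −0.00543 (transcript ends), −0.0191 (centromere ends) and 0.694 (wide peaks), with 0 gene and 0 bin calls, and no value for TSS calls.

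At equal covered length, where covered length is fixed by construction, gene bodies (2.56 points), transcript ends (0.842), chromosome 4 (2.52), X (1.00) and bins with no peak (−11.0) had the opposite sign, past the threshold for gene bodies and bins with no peak, TSS windows passed (5.29), centromere ends no longer passed (−1.05), and calls were 0 gene gains, 0 gene losses and 88 losing bins. Scaled to the covered share, bins gave 42 gains and 14 losses.

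Gene gains were 10 on the arcsine scale and 15 with all male libraries, and gains and losses 16 and 68 without the mean-dependent prior (TSS windows 62 and 91, gaining bins 50). Genes of at least 2 kb gave 0 and 0, and genes of at least 20 kb 26 and 204, or 43 and 10 scaled, 97 gains at equal length, and 13 and 125 without the 10–12 day replicate 1. Without replicate 3 of both stages there were 0 gene gains, 0 gene losses and 420 losing bins. Bins of 5 kb gave 12 gains and 189 losses. The sex difference found 0 bins.

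Leaving out 1 library at a time gave 4 to 15 gene gains, 17 to 43 gene losses, 0 TSS calls, 26 to 88 gaining bins and 319 to 664 losing bins. Losing bins numbered 319, 331 and 379 without the 10–12 day replicates 1, 2 and 4, and gaining bins 26, 28 and 30 without the 1-day replicates 1, 2 and 4. With 3 libraries against 4 no library value can pass (smallest exact p 0.0571). Their differences ran from −9.24 to −7.46 Mb, −179 to −149 bp, −5.27 to −3.24 (gene bodies), −10.9 to −10.3 (intergenic), 0.303 to 2.15 (TSS), −4.46 to −3.11 (transcript ends), 0.28 to 0.39 (log2 ratio), −3.92 to 0.433 (chromosome 4, positive without the 1-day replicate 1), −2.31 to −1.77 (centromere ends), −1.72 to −0.434 (X), −0.145 to 1.29 (bins with no peak, negative without the 1-day replicate 2) and −3.57 to −3.18 (wide peaks). The sex difference ranged from 1 to 19 genes.

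At 2119672 to 5246257 tags and weak enrichment, absence of a peak does not show absence of the mark.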
